A study of Mus musculus with 23 samples.

Results

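The RNA crosslink sites described here lay outside annotated genes, in intergenic sequence or downstream of a gene. They were taken from 6 deposited site lists of CTCF, each list giving single-base positions, a strand and a score. A site belonged to this set when it lay on chromosomes 1 to 19, X or Y, in no GENCODE gene body of the mm10 (GRCm38) genome on either strand, and not within 2 kb upstream of a gene start on the other strand. Of the 1346716 sites in the 6 lists, 45083 did so, at 34217 distinct positions. Each site was then placed by its distance from the nearest upstream gene end on its own strand, as 0-5 kb, 5-50 kb or over 50 kb. Sites inside a gene body on the same strand, called sense sites, served for comparison. The rule used position only, so the base at a site, its score and its grouping with other sites were not part of it.

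The study mapped RNA bound by CTCF with iCLIP2, in which UV light crosslinks protein to RNA and reverse transcription tends to stop at the crosslinked base. It asked how the first zinc finger of CTCF contributes to RNA binding in mouse embryonic stem cells (ESC) and in cells taken 2 days towards neural progenitors (NPC). All groups came from E14 ESC in which both Ctcf alleles carried an mAID-eGFP degron tag, with OsTIR1(F74G) at Rosa26, an mCherry reporter at Hb9 and a doxycycline-inducible Flag-Halo CTCF transgene at Tigre. The transgene was wild type in the WT groups and lacked the first zinc finger in the ΔZF1 groups, with 1 clone for each. In every group 1 µM 5-Ph-IAA, which degrades the tagged endogenous protein, and 1 µg/mL doxycycline were given for 24 h. Nuclear RNA held by the Flag-tagged protein was recovered after 254 nm UV at 400 mJ/cm2 from the WT and ΔZF1 groups of both cell types. ESC noXL and NPC noXL were the WT line without UV, so no control without UV was analysed here for ΔZF1. The NPC groups had been differentiated on laminin in N2B27 medium. The 23 libraries, 3 for NPC WT and 4 for each other group, had been merged within a group before sites were called. Each group is therefore 1 pooled list with no replicate error, no test between lists was possible, and the depth behind a list is unknown. The number of sites called grows with depth, so counts are read here against those of sense sites. Where 3 values follow each other for a cell type below, their order is WT, ΔZF1 and noXL.

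CTCF is a zinc finger DNA-binding protein that, with cohesin, sets the ends of chromatin loops, and it also binds RNA. RNA outside annotated genes has several known sources. RNA polymerase II runs on past the polyadenylation site before it terminates, so that nascent RNA is found downstream of active genes. Unannotated long noncoding RNAs and retained primary transcripts of microRNA clusters lie between genes, and RNA polymerase III transcribes tRNA genes and short interspersed repeats such as B2. UV at this wavelength crosslinks uridine more readily than other bases, so the base at a site is a readout that the choice by position did not use.

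The sequences below were read from the RefSeq copy of GRCm38, 5′ to 3′ on the strand of the site, and T stands for uridine. The first set shows the highest-scoring site of windows of 10 kb that held the most sites in ESC WT or NPC WT, with the site in capitals and 20 bases on either side. In all but 2 of the 7 shown the site base was T.
Y window after Gm20837, chrY:90723274-90723314, plus strand: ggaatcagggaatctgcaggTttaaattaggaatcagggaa
Y window next to it, chrY:90730132-90730172, plus strand: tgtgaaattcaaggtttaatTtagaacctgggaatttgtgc
Zfp42, chr8:43144221-43144261, minus strand: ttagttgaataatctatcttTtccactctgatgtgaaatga
Polr1e, chr4:45116177-45116217, plus strand: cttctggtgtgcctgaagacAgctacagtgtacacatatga
Nespas, chr2:174270110-174270150, minus strand: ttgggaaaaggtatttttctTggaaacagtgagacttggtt
Gm21860, chrY:90744369-90744409, minus strand: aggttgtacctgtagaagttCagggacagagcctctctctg
Gm25224, chr12:109694315-109694355, plus strand: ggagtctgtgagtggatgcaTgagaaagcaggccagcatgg

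The second set shows the tRNA genes with the most sites in ESC WT and NPC WT together, each from 12 bases before the gene to its end. Capitals mark bases that were a site in ESC WT or NPC WT. They are shown because the sites fell at a few places that recur from one tRNA to the next. Among these were the bases just before the gene, around the anticodon and in the last part of the body.
n-TTagt3, tRNA-Thr, chr13:21249194-21249279, minus strand: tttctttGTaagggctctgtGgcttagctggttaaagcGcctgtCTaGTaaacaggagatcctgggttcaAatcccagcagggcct
n-TKctt26, tRNA-Lys, chr1:133033950-133034034, plus strand: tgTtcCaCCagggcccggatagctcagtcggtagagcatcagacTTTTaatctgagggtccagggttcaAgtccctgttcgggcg
n-TLtag1, tRNA-Leu, chr7:120835479-120835572, minus strand: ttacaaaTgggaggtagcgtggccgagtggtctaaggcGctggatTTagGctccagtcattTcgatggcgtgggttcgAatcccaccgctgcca
n-TQttg3, tRNA-Gln, chr13:21268469-21268552, minus strand: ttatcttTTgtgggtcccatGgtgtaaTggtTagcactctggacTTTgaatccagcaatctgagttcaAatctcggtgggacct

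The third set shows sites in copies of 2 families of short interspersed RNA. In the B2-like sites capitals mark the site, the 21st base, and the letters GAGATGGCT that followed it. In the 4.5S-like sites capitals mark the letters GATTTGCTG, within which the site was the fourth letter.
B2-like, 562 nt after Pex3, chr10:13523250-13523300, minus strand: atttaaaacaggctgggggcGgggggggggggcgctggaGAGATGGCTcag
B2-like, after Gm27321, chrX:103629089-103629139, plus strand: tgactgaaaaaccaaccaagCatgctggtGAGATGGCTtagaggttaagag
4.5S-like, after Hspbap1, chr16:35876728-35876778, plus strand: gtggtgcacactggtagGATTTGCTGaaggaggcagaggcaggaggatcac
4.5S-like, after Gm11185, chr4:83329290-83329340, plus strand: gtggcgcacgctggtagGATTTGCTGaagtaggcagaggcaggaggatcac

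The fourth set shows 1 site of each list at which the genome after the site held the letters of a library adapter. Capitals mark GATCT directly after the site and, 5 bases further on, the 6 letters of an adapter barcode, and the site is the 21st base. The barcode differed from list to list.
ESC WT, chr5:142399493-142399539, plus strand: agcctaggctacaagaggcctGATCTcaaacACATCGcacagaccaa
ESC ΔZF1, chr17:89301085-89301131, minus strand: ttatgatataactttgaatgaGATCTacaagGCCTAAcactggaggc
ESC noXL, chr14:110195263-110195309, minus strand: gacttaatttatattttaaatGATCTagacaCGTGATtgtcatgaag
NPC WT, chr5:54342331-54342377, plus strand: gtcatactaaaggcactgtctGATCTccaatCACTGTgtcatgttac
NPC ΔZF1, chrX:19182917-19182963, plus strand: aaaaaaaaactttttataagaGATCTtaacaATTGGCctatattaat
NPC noXL, chr11:112034425-112034471, plus strand: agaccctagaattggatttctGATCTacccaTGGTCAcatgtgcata

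As a check of the cell labels, sites in the gene bodies of marker genes were counted. The 6 stem cell markers, among them Esrrb, Tfcp2l1 and Nanog, held 1155, 561 and 296 sites in the ESC lists and 44, 24 and 22 in the NPC lists. Of the 5 neural progenitor markers, Nes accounted for nearly all sites, with 28 in NPC WT and 32 in NPC ΔZF1 against 2 and 0 in the ESC lists, while Hes5 and Zic1 held 0 in every list. Of 6 endoderm and trophoblast markers, only Krt8 held sites, with 42, 22 and 13 in the NPC lists and 0, 0 and 2 in the ESC lists. These counts reflect RNA abundance and list length together, so they are no measure of purity.

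Sites outside genes were a small share of every list. ESC WT held 15732, ESC ΔZF1 9848 and ESC noXL 5759, which was 3.49%, 4.25% and 3.62% of the list. The NPC lists held 6460 in WT, 3727 in ΔZF1 and 3557 in noXL, or 2.70%, 2.35% and 3.32%. The share was thus highest for ΔZF1 among the ESC lists and lowest for ΔZF1 among the NPC lists, although with sites within 8 nt merged the NPC difference of ΔZF1 minus WT was only -0.0145 percentage points. Intervals given here are 95% intervals that cover counting error only, and since sites lie in clusters and are not independent, they are too narrow.

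Sites outside genes crowded behind gene ends. In ESC WT there were 78.9 sites per Mb in the first 500 nt after a gene end, 46.9 from 500 nt to 1 kb, 15.7 from 2 to 5 kb, 6.82 from 5 to 50 kb and 2.97 beyond 50 kb. The density within 5 kb was 9.73, 9.13 and 8.92 times that beyond 50 kb in the WT, ΔZF1 and noXL lists of ESC and 12.4, 20.0 and 9.53 times in those of NPC. All 6 lists fell with distance, the lists without UV included, and NPC ΔZF1 was the steepest.

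The first 500 nt set the UV lists apart from those without UV. Density there was 5.03 times that at 2 to 5 kb for WT in ESC, 4.42 times for ΔZF1 and 2.66 times for noXL. For NPC the factors were 5.27, 5.80 and 3.22. Sites within 5 kb accordingly lay a median of 1097, 1169 and 1571.5 nt from the gene end in the ESC lists, and of 1044, 987.5 and 1370 nt in the NPC lists. Both UV lists of each cell type were closer to the gene end than the list without UV.

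**Figure D1:**
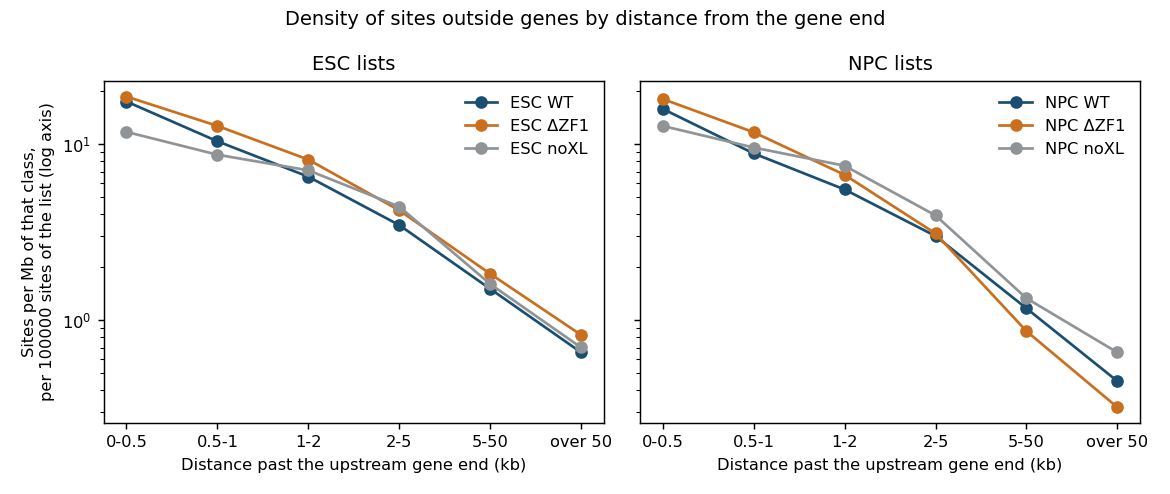
Sites outside genes per Mb of sequence, scaled to the number of sites in each list (log axis), for each of the 6 pooled lists. Classes are distances from the nearest upstream gene end on the same strand. The scaled density fell from 17.5 in the first 500 nt to 0.658 beyond 50 kb in ESC WT, and NPC ΔZF1 was the lowest list beyond 50 kb.

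NPC ΔZF1 had the largest share of its sites close to a gene end. In ESC WT 29.9% of the sites lay within 5 kb, 36.3% from 5 to 50 kb and 33.7% beyond, and in ESC ΔZF1 28.9%, 36.3% and 34.8%. In NPC WT the 3 shares were 33.7%, 36.4% and 29.9%, and in NPC ΔZF1 44.6%, 31% and 24.4%. The share within 5 kb in WT minus that in ΔZF1 was -10.9 percentage points (-12.8 to -8.91) in NPC and 0.99 points in ESC, with an interval that included 0 (-0.159 to 2.13). The gene upstream of a site within 5 kb was protein coding for 66.2%, 63% and 71.9% of sites in the ESC lists, and for 62.1%, 68.0% and 73.2% in NPC. A pseudogene was the upstream gene for 18.8% in ESC WT and 15.6% in NPC WT, against 10.8% and 5.57% in the lists without UV.

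Many of these sites lie in genes of another annotation. Over all distances, RefSeq placed 22.9% of the sites of the WT list in ESC and 23.8% in NPC in a protein-coding gene that GENCODE does not extend that far. It placed 64.7% and 59.8% in no gene at all. Within 5 kb of a gene end, 40.6% of ESC WT and 40.5% of NPC WT sites lay in a same-strand RefSeq gene of any kind. Beyond 50 kb these shares were 24.4% and 28.1%. The polyadenylation hexamer AATAAA, searched on the strand of the site, lay within 50 nt of 11.4% of ESC WT sites within 5 kb and of 8.68% of those in NPC WT, against 7.99% of all stretches of that length in the distance class and 6.36% and 6.48% of the sites without UV. ESC ΔZF1 had 10.8% and NPC ΔZF1 8.18%, and the intervals of all 3 NPC lists included the background, as 7.57% to 9.93% for NPC WT. In ESC the share was above the background in both UV lists and below it without UV. The match is by letters only and marks no used polyadenylation site.

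Uridine was the preferred base outside genes wherever UV had been used, though less so than inside genes. Among ESC lists it was the site base for 46.8% of the WT sites, 40.2% of the ΔZF1 sites and 28.9% of the noXL sites. Among NPC lists it was 46.2%, 46.1% and 27.4%. Among sense sites the shares were 60.6%, 49.2% and 28.3% in the ESC lists and 64.6%, 59% and 27.9% in the NPC lists. Both lists without UV stood near the share of uridine in the sequence outside genes, 28.7% within 5 kb and 30.0% beyond 50 kb.

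The excess over noXL was 17.9 percentage points (16.5 to 19.3) in ESC WT and 18.7 (16.8 to 20.6) in NPC WT, where sense sites gave 32.3 and 36.7. It was largest next to genes. Within 5 kb it was 25.5 points in ESC and 31.6 in NPC, from 5 to 50 kb 12 and 9.07, and beyond 50 kb 17.3 and 15.3. The base before the site was the next richest in uridine, at 38% in ESC WT and 37.6% in NPC WT.

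The ΔZF1 lists had a smaller share of uridine than WT outside genes in ESC, and in NPC close to genes. WT exceeded ΔZF1 by 6.58 points (5.33 to 7.82) in ESC. In NPC the difference was 0.0649 points (-1.95 to 2.07) over all sites outside genes and 4.96 (1.79 to 8.12) for those within 5 kb. Sense sites differed by 11.4 points in ESC and 5.61 in NPC, more than the sites outside genes did in either cell type.

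**Figure D2:**
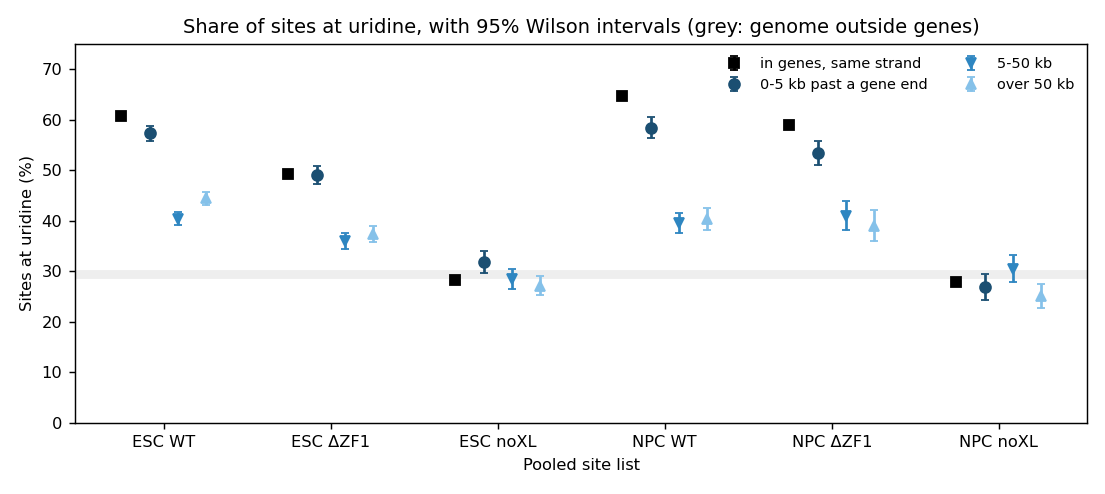
Share of sites at uridine (%, with 95% Wilson intervals for counting error) in each distance class outside genes and among sense sites, for the 6 pooled lists. The UV lists lay above the lists without UV in every class, and ESC WT fell from 60.6% at sense sites to 46.8% outside genes.

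tRNA genes held a concentrated group of these sites. They are transcribed by RNA polymerase III as precursors whose 5′ leader is cut off, and the GENCODE annotation used for the rule does not list them. The sets by tRNA genes, repeat letters, RefSeq class, runs and adapter letters were chosen after the data were examined. Of the sites outside genes, 990, 643 and 227 of the ESC lists lay within 100 nt of 1 of the 403 RefSeq tRNA genes, which was 6.29%, 6.53% and 3.94%. In NPC WT and NPC ΔZF1 there were 675 and 328, and the 3 NPC lists had 10.4%, 8.80% and 3.46%. For WT they were spread over 202 tRNA genes in ESC, 186 in NPC and all 20 isotypes, each of which had more sites in WT than in noXL in both cell types.

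Within tRNA genes the excess over noXL was larger than at the other sites outside genes. The gene bodies held 634, 375 and 76 sites in the ESC lists and 393, 216 and 42 in the NPC lists. WT over noXL was 8.34 (6.58 to 10.6) in ESC and 9.36 (6.81 to 12.9) in NPC. Sites away from tRNA genes gave 2.66 and 1.68. Counting each tRNA gene with a site once brought the ratios to 2.95 and 4.36, so part of the size came from several sites in 1 gene.

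The 5′ flank behaved less strongly. It held 344, 258 and 146 sites in ESC and 269, 106 and 81 in NPC, in the order WT, ΔZF1 and noXL, and WT over noXL was 2.36 in ESC and 3.32 in NPC. From 73.2% to 79.0% of the flank sites in the 6 lists lay at the positions 7 to 3 bases before the gene, which is the stretch shown at the left of the tRNA sequences above. The 3′ flank was nearly empty, with at most 13 sites in a list. WT over ΔZF1 was 1.69 in the body and 1.33 in the 5′ flank in ESC, and 1.82 and 2.54 in NPC.

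Sites in the tRNA body fell on few positions. For ESC WT 204 of them lay at positions 33 to 38, around the anticodon, 114 at positions 57 to 59 and 55 at positions 19 and 20. In ESC noXL those counts were 15, 18 and 1. In NPC WT they were 132, 88 and 22, and in NPC noXL 12, 9 and 0. Positions 26 and 27 held 52 sites in ESC WT, 6 in ESC noXL, 36 in NPC WT and 1 in NPC noXL. For positions 9 and 10 the counts were 51, 6, 31 and 2 in the same order. Both thus held more sites in NPC WT than positions 19 and 20. The tRNA sites were not rich in uridine. The share in the body was 36.0%, 24.5% and 11.8% in the ESC lists and 29.3%, 14.8% and 7.14% in NPC, below the other sites outside genes of each list and highest in WT in both cell types. Scores were high, with medians of 34.2, 29.3 and 15.5 in ESC and 23.6, 23.8 and 13.5 in NPC. At most 7.62% of them lay in a stretch of 64 bases that occurs more than once in the genome.

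**Figure D3:**
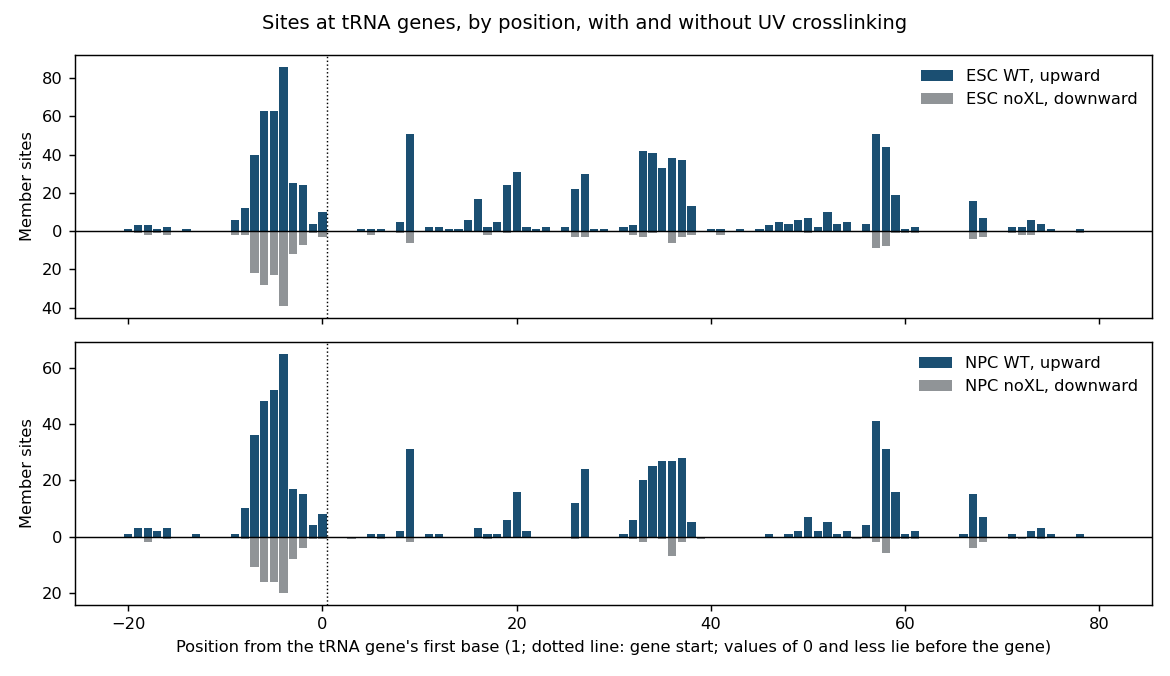
Number of sites at each position of RefSeq tRNA genes, counted in bases from the start of the gene, for the pooled lists of ESC and NPC. Sites gathered just before the gene, at positions 33 to 38 and at positions 57 to 59, with 204, 15, 132 and 12 sites at positions 33 to 38 in ESC WT, ESC noXL, NPC WT and NPC noXL.

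A second recurring sequence was the B2 repeat, a short interspersed element that RNA polymerase III transcribes. Its letters GAGATGGCT, searched on the strand of the site and starting 1 to 20 bases after it, occur at 159164 places in the genome, 67394 of them outside genes. No repeat annotation was used. They followed 698, 513 and 257 sites in the ESC lists, or 4.44%, 5.21% and 4.46% of the sites outside genes, and 217, 49 and 56 in the NPC lists, or 3.36%, 1.31% and 1.57%. Sense sites had them at 0.158%, 0.197% and 0.148% in ESC and 0.138%, 0.108% and 0.0765% in NPC, below the sites outside genes of each list. Antisense sites, which lie in a gene on the other strand, had them at 7.50%, 7.38% and 9.14% in ESC and 7.55%, 2.07% and 1.41% in NPC, more often than the sites outside genes in all lists but NPC noXL.

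The sites lay mostly near one place in the repeat. In ESC WT the letters started 9 or 10 bases after the site at 183 and 214 of the 698 sites, and 7, 8, 11 or 12 bases after it at 38, 86, 91 and 45. The rest of the 698 were spread over the other offsets, as in the sequence after Pex3 printed above, with the letters 19 bases after the site. Not among the 698, a further 13 and 15 ESC WT sites lay 26 and 25 bases after the start of the letters. The site was uridine for 27.2% in ESC WT and 28.1% in NPC WT, while the lists without UV had 26.1% and 32.1%, so no excess at uridine was seen. Their median score was 13.1 in ESC WT against 4.31 at the other sites outside genes, and 11.2 against 4.54 in NPC WT.

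In NPC the B2-like sites were more frequent in WT than in either other list. WT over ΔZF1 was 1.36 in ESC, where the other sites outside genes gave 1.61, and 4.43 (3.25 to 6.04) in NPC, where they gave 1.70. Relative to the other sites the ratio was 0.845 (0.752 to 0.950) in ESC and 2.61 (1.91 to 3.57) in NPC. WT over noXL was 2.72 in ESC, next to 2.73 at the other sites, and 3.88 (2.89 to 5.2) in NPC, next to 1.78. The B2-like sites thus had nearly the same ratio to noXL as the rest in ESC, and in NPC the low counts were those of ΔZF1 and noXL. Among antisense sites the ratio of WT over ΔZF1 relative to the other sites was 1.02 in ESC and 3.85 in NPC, so its direction in ESC did not carry over.

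**Figure D4:**
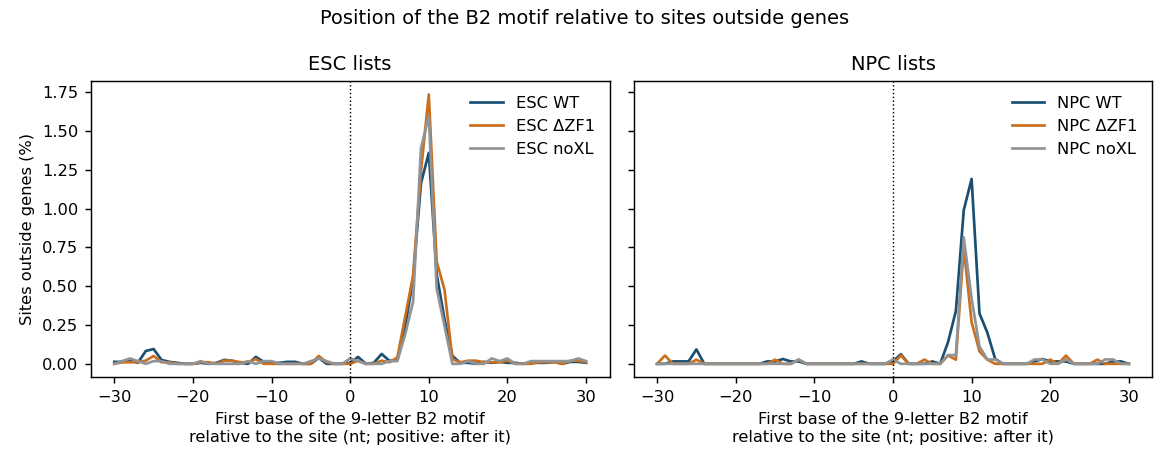
Share of sites outside genes (%) at which the B2 letters start at each distance after the site (nt), for the ESC and NPC lists. The letters start most often 9 or 10 nt after the site in all 6 lists, and over the 20 offsets they cover 3.36% of the sites in NPC WT and 1.31% in NPC ΔZF1.

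Letters of 4.5S RNA, another short RNA polymerase III transcript of rodents, gave the opposite picture. GATTTGCTG within 10 bases of the site was found at 80, 44 and 6 sites in the ESC lists and at 57, 19 and 7 in the NPC lists. The site was uridine for 73.8%, 90.9% and 33.3% in ESC and for 93.0%, 94.7% and 57.1% in NPC. WT over noXL was 13.3 (5.82 to 30.6) in ESC and 8.14 (3.71 to 17.9) in NPC, and WT over ΔZF1 was 1.82 and 3.00. Within that limit of 10 bases, which was chosen after the data were examined, the sites were few and mostly at uridine in the UV lists. A second group of sites lay before the letters. With the letters starting 28 bases after the site there were 15, 14 and 17 sites in ESC and 14, 14 and 13 in NPC. At 29 bases there were 10, 12 and 11 in ESC and 15, 6 and 3 in NPC, and at 30 bases, where the search ended, 7, 4 and 1 and then 3, 1 and 0. Sites without UV thus numbered about as many as those of WT at 28 bases in both cell types and at 29 bases in ESC, and fewer at 29 bases in NPC. The letters occur at 21664 places in the genome, 10876 of them outside genes. The annotated Rn4.5s gene, which holds 1 copy of the letters, had 0 of these sites in every list.

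Pseudogenes listed by RefSeq behaved in a similar way. They held 508, 273 and 68 sites in the ESC lists, of which 69.1%, 71.4% and 27.9% were at uridine, and 205, 94 and 26 in the NPC lists, with 64.4%, 66.0% and 30.8%. WT over noXL was 7.47 (5.80 to 9.62) in ESC and 7.88 (5.24 to 11.9) in NPC. Reads of a pseudogene and of its parent gene can be hard to tell apart, and how the alignment shared them was not tested.

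Intergenic sites also ran in long stretches. Joining sites of any list that lay within 5 kb of each other on a strand gave 102 runs of at least 50 sites, from 0.445 to 63.1 kb long. They held 30.6% of the sites in ESC WT and 16.8% in NPC noXL. Of the 102 runs, 67 had sites in all 6 lists and 18 had none in any NPC list. The 50 sites were counted over all 6 lists together, and most sites come from ESC, so runs were chosen mainly by their ESC sites and these counts do not compare the cell types. In 97 of them the UV lists had a larger share at uridine than the lists without UV.

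Some runs had sites in the ESC lists and none in the NPC lists, and 3 of them are described here. A run of 51.4 kb that began 64716 nt after Fam53a, chr5:33484233-33535631 on the minus strand, held 290, 267 and 118 sites in the ESC lists and 0 in each NPC list. The nearest upstream gene of the window chr8:43140001-43150000 on the minus strand was Zfp42, which encodes the stem cell factor REX1 and lay 145253 nt away, and RefSeq places the sites in Triml1. That window held 102, 48 and 36 sites in the ESC lists and 0 in the NPC lists. The run after the stem cell noncoding RNA Lncenc1, chr13:97497051-97511177 on the plus strand, held 118, 79 and 56 sites and again 0 in NPC. All 3 had sites in ESC with and without UV.

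A run with more sites in NPC lay over the imprinted microRNA cluster on chromosome 12. At chr12:109702674-109728042 on the plus strand, after B830012L14Rik and where RefSeq lists Mir379, there were 91, 72 and 57 sites in the NPC lists and 11, 18 and 3 in the ESC lists. In the UV lists 67.2% of them were at uridine, against 23.3% without UV. The neighbouring window after the small RNA Gm25224, chr12:109690001-109700000, held 39, 27 and 14 sites in NPC and 1, 0 and 3 in ESC. Both UV lists and the list without UV were high in NPC.

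The fullest stretch of all was on the Y chromosome. The run chrY:90717539-90745034 on the plus strand, whose nearest upstream gene was Gm20837, held 333, 151 and 48 sites in the ESC lists and 204, 62 and 41 in NPC. In its fullest window of 10 kb, at least 286755 nt after that gene, there were 145, 59 and 14 sites in ESC and 81, 20 and 11 in NPC. Uridine made up 60.7% of the UV sites there, and 32.1% of the sites of all lists lay in a repeated stretch of 64 bases. On chromosome 4 the run after Polr1e, which encodes an RNA polymerase I subunit, held 219, 128 and 93 sites in ESC and 18, 42 and 16 in NPC over 63.1 kb. The run after Nespas, the antisense RNA of the imprinted Gnas locus, lay at chr2:174266487-174281220 on the minus strand. It held more sites in ΔZF1 than in WT in ESC, at 106, 122 and 33, while in NPC it held 95, 68 and 51.

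Clustering in windows of 10 kb was read as a description, since longer lists fill more windows. Windows with at least 10 sites held 40.8%, 29.1% and 22.4% of the sites outside genes in the ESC lists and 23.6%, 13.9% and 7.84% in the NPC lists. The share that stood alone in a window ran the other way, at 6.07%, 13.8% and 27.6% in ESC and 13.3%, 24.0% and 46% in NPC. Sense sites gave 84.7%, 67.9% and 50.9% in full windows in ESC and 67.2%, 50.4% and 33.6% in NPC. The order of the lists within a cell type was the order of their sizes, although NPC ΔZF1 and NPC noXL, with 3727 and 3557 sites, differed more in full windows than in size.

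Within 5 kb of a gene end, ESC WT and NPC WT were led by partly different genes. In ESC WT the 5 highest within 5 kb were Klhl11, of the kelch-like family, Zfp42, the splicing regulator Hnrnpf, Nespas and Lncenc1. Klhl11 had 57, 34 and 26 sites in the ESC lists and 13, 4 and 14 in the NPC lists, all of them inside Klhl11 as RefSeq draws it. Zfp42 had 54, 29 and 20 in ESC and Lncenc1 had 51, 32 and 23, and both had 0 in every NPC list although their gene bodies held 11 and 14 sites in NPC WT. Hnrnpf had 52, 22 and 19 in ESC and 18, 19 and 18 in NPC. Downstream sites of Zfp42 and Lncenc1 were thus seen in ESC only, with and without UV.

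In NPC WT the leading genes were Gm25224 with 34, 24 and 10 sites in the NPC lists, Nespas with 34, 22 and 19, the activin receptor gene Acvr2b with 31, 17 and 20, Rbm15, which encodes an RNA-binding protein of the m6A writer complex, with 21, 9 and 6, and the nucleolar phosphoprotein gene Npm1 with 21, 13 and 8. Acvr2b, Rbm15 and Npm1 were also well covered in ESC WT, with 29, 39 and 35 sites. As for Klhl11, all sites of Acvr2b and Rbm15 within 5 kb lay inside those genes as RefSeq draws them. The UV sites of these named genes were at uridine for 59% to 77.2%, the highest being Npm1. Within 50 kb downstream of the 12 genes of the stem cell list there were 90, 49 and 35 sites in ESC and 0, 1 and 0 in NPC. Few of the genes carried them: 6, 4 and 4 of the 12 had a site in the ESC lists, and Zfp42 alone gave 73, 38 and 31. The 12 neural and formative genes had 7, 2 and 2 in ESC and 5, 3 and 2 in NPC, too few to set cell types apart. The 69 histone genes had 64, 31 and 19 in ESC and 48, 16 and 17 in NPC, and Podxl and Grb10, which the study followed, had 0 in all lists.

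Sites outside genes thinned between lists in different proportion from sense sites. WT over noXL was 2.73 outside genes and 2.85 at sense sites in ESC, a quotient of 0.960 (0.931 to 0.990), and 1.82 and 2.26 in NPC, a quotient of 0.805 (0.772 to 0.839). WT over ΔZF1 was 1.60 against 1.97 in ESC, or 0.811 (0.790 to 0.832), and 1.73 against 1.50 in NPC, or 1.15 (1.11 to 1.20). WT over ΔZF1 was thus lower outside than inside genes in ESC and higher in NPC. In NPC it was 2.03 from 5 to 50 kb and 2.12 beyond 50 kb, above the sense ratio, and 1.31 within 5 kb, below it. With only sites at or above the pooled median score the ESC quotient for WT over noXL turned to 1.13, and with sites within 8 nt merged the NPC quotient for WT over ΔZF1 was 1.01.

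Chromosomes 11 and Y had the highest ratios of WT over ΔZF1 in both cell types. In ESC, WT over ΔZF1 outside genes was 2.70 on chromosome 11 and 1.52 on all other chromosomes together, and sense sites gave 2.94 and 1.88. In NPC it was 2.39 and 1.68 outside genes and 2.32 and 1.44 at sense sites. On chromosome Y the ratio was 2.30 outside genes and 2.74 at sense sites in ESC, below chromosome 11, and 3.57 and 3.38 in NPC, above it. Set against noXL, which is the WT line without UV, the chromosomes differed from each other. On chromosome 11 in ESC, WT over noXL outside genes was 2.68 against 2.74 on all other chromosomes, and ΔZF1 over noXL was 0.991 against 1.80. In NPC these were 1.98 against 1.80 and 0.826 against 1.07. On chromosome Y, WT over noXL was 6.59 in ESC and 4.59 in NPC, and ΔZF1 over noXL 2.87 and 1.29. The 3 windows with the highest ratio in ESC were all on chromosome 11. The window chr11:33540001-33550000 on the plus strand, after Gm12118, held 83, 0 and 15 sites in the ESC lists. The windows chr11:11910001-11920000 and chr11:11920001-11930000 on the plus strand, after 1700042O10Rik, held 44, 0 and 27 sites and 67, 0 and 19 sites. The transgenes differ in clone as well as in protein, and these cannot be told apart here.

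Single windows were compared by the log2 ratio of their site counts with a pseudocount of 1, scaled to all sites of each list, and those past 2-fold were counted with no test. Of 385 windows outside genes with at least 10 sites in ESC WT and ESC noXL together, 54 (14.0%) were higher and 37 (9.61%) lower in WT, where all windows in and outside genes gave 10.8% and 11%. In NPC 29 of 126 (23.0%) were higher and 9 (7.14%) lower in WT than in noXL, against 14.8% and 10.9%. For WT and ΔZF1, 51 of 542 (9.41%) were higher and 59 (10.9%) lower in ESC, against 10.1% and 9.22%, and 13 of 163 (7.98%) and 11 (6.75%) in NPC, against 10.6% and 10.9%. The share for WT above noXL in NPC was above the background. The median log2 ratio of WT over ΔZF1 in ESC was -0.31 for windows outside genes and -0.03 for all windows, and with a minimum of 20 sites 12.4% were lower in WT, against 6.44%. At uridine sites only, 12 windows (7.95%, against 10.7% of all windows) were higher in WT than in noXL in ESC and 10 (23.3%, against 16.5%) in NPC. With a minimum of 20 sites the NPC share was 13.5% against 12.4%, near the background.

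Between the cell types 131 of 508 windows outside genes (25.8%, 22.2 to 29.8) were lower in NPC WT than in ESC WT and 43 (8.46%) higher, where all windows gave 14.2% and 13.9%. The lowest was the Zfp42 window on chromosome 8, where NPC WT had 0 sites and ESC WT 102, and the highest the window chr12:109700001-109710000 after B830012L14Rik, where ESC WT had 0 sites and NPC WT 25. Windows past 2-fold lower in NPC were more frequent outside genes than among all windows. The median scaled log2 ratio of NPC WT over ESC WT was 0.18 outside genes and 0.06 over all windows, so the typical compared window outside genes was not lower. These 508 windows held 50.3% of the sites outside genes in the 2 lists. Over all sites outside genes NPC WT over ESC WT was 0.411, against 0.536 at sense sites, a quotient of 0.766 (0.743 to 0.788).

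Some windows had many sites without UV and none after it in the same cell type. The window chr6:49230001-49240000 on the minus strand, after the splicing factor gene Tra2a, held 0 sites in ESC WT and ESC ΔZF1, 29 in ESC noXL and 2 in NPC noXL, and chr11:109010001-109020000 on the minus strand, after Gm24149, held 24 in ESC noXL and 0 in the other 5 lists. On the other side, chr6:51450001-51460000 on the minus strand, after Hnrnpa2b1, held 15, 4 and 0 sites in the ESC lists and 9, 3 and 3 in the NPC lists. The window after the splicing factor gene Srsf5, chr12:80950001-80960000 on the plus strand, held 16, 5 and 0 in NPC and 17, 8 and 2 in ESC. Downstream of Scd2, chr19:44300001-44310000 on the plus strand, 9 sites were seen in NPC ΔZF1, 2 in NPC WT and 0 in the other 4 lists.

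Positions recurred between lists more often outside genes than inside. Of ESC ΔZF1 sites outside genes, 46.8% lay within 5 nt of an ESC WT site, against 24.2% of sense sites, and in NPC 33.8% against 13.1%. Of NPC WT sites 56.5% lay that close to an ESC WT site, against 28.2% of sense sites. Sites shared with the lists without UV were also more frequent, at 21.9% for ESC WT and 21.2% for NPC WT outside genes, against 7.67% and 5.64% of sense sites.

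Scores were higher outside genes in every list. The median was 4.48, 4.90 and 6.25 in the ESC lists, where sense sites had 2.53, 2.67 and 4.15. In NPC it was 4.63, 5.89 and 8.71 against 2.37, 3.77 and 3.63. The 10% of each list with the highest scores held 27.4%, 31.4% and 27.7% of the sites outside genes in ESC and 30.4%, 27% and 42.1% in NPC, against 8.23% to 9.52% of sense sites. Beyond 50 kb in NPC noXL that share was 60.3%, the highest of any distance class in the 6 lists, and the median score there was 17.7.

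Part of those far sites was followed by letters of a library adapter. The 4 letters GATC stood directly after 0.318%, 1.32% and 2.12% of the sites outside genes in the ESC lists and after 0.433%, 1.18% and 7.62% in the NPC lists. Beyond 50 kb in NPC noXL it was 13.7%, or 173 of 1261 sites, while sense sites of the 6 lists gave at most 0.390%. Starting 5 to 16 bases before the site, the letters were found at no more than 0.429% of the sites outside genes at any position. The 271 such sites in NPC noXL lay in 269 windows on 21 chromosomes, and 93.0% were among the 10% with the highest scores in the list, with a median score of 34.7 against 7.49 at the others. Only 3 of them were near an ESC noXL site and 1 near an NPC WT site.

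**Figure D5:**
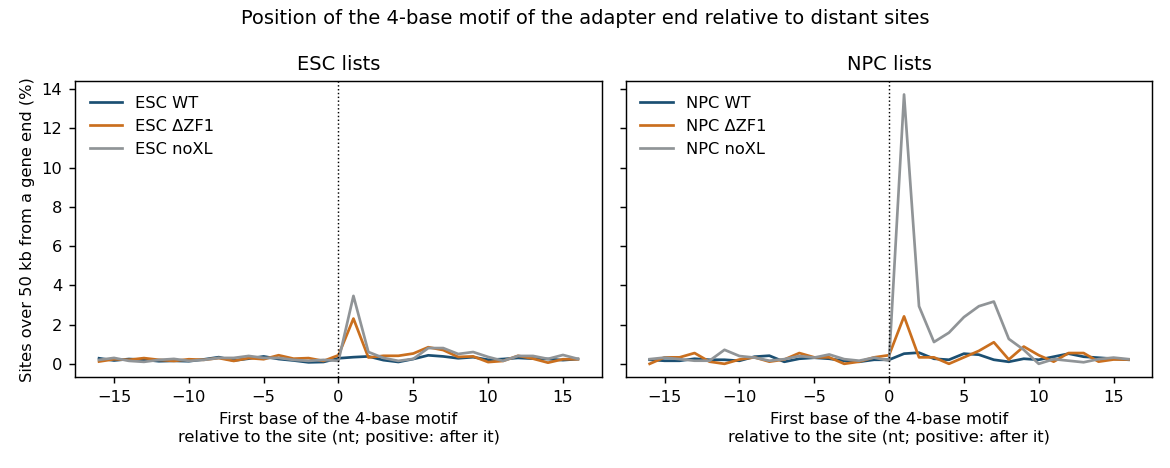
Share of sites over 50 kb from a gene end (%) at which GATC starts at each distance from the site (nt, positive after it), for the ESC and NPC lists. At the base directly after the site the share was 13.7% in NPC noXL and 3.46% in ESC noXL, while ESC WT showed no rise there, at 0.339%.

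The bases further on matched the rest of the adapter. Of the 10 barcoded adapters in the oligonucleotide list of the study, the sites outside genes of each list matched a single barcode, read in reverse complement 11 to 16 bases after the site, and the other 9 barcodes were matched by 0 of these sites followed by GATC. Among sense sites followed by GATC, other barcodes were matched by at most 2 sites each in any list. The barcode was L02 at 11 of 50 GATC sites in ESC WT (22%), L03 at 76 of 130 in ESC ΔZF1 (58.5%), L01 at 38 of 122 in ESC noXL (31.1%), L05 at 15 of 28 in NPC WT (53.6%), L06 at 30 of 44 in NPC ΔZF1 (68.2%) and L04 at 226 of 271 in NPC noXL (83.4%, 78.5 to 87.4). As a share of all sites outside genes these were 0.0699%, 0.772%, 0.660%, 0.232%, 0.805% and 6.35%, and of sense sites at most 0.105%. Antisense sites had 0.200%, 1.87%, 0.805%, 0.238%, 0.992% and 8.07% in the same order of lists, so the adapter letters were not particular to sites outside genes. Median scores of these sites ran from 17.2 in NPC WT to 37.9 in NPC noXL. How such sites arose was not tested. Without the sites followed by GATC the 10% with the highest scores still held 29.8 percentage points more of the sites outside genes than of the sense sites in NPC noXL, where it was 33.9 with them.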

How the data were processed

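iCLIP2 was performed on nuclear RNA from 23 libraries in 6 groups, grouped as GEO's labels give them. According to the methods, reads were trimmed with Flexbar, aligned to mm10 with STAR, deduplicated with UMI-tools, merged within a group and passed to PureCLIP to call single-base crosslink sites; versions are not given in the sources used here. The deposited lists hold 1 position per line with the PureCLIP score the authors kept, a number without unit that grows with confidence and is not scaled to depth. The library depth is unknown from these lists.

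Sites were placed against GENCODE M21 gene bodies (55413 genes on 21 chromosomes) and the RefSeq GRCm38 sequence with Python 3.11.15, numpy 2.4.6 and pandas 2.3.3. Shares carry 95% Wilson or Newcombe intervals and ratios intervals on the log scale, for counting error only. Windows were stranded and 10 kb long, and were compared where both lists together held at least 10 sites, with a pseudocount of 1. Placement and intervals were tested on simulated data. Named were the 5 fullest windows and the 5 genes with the most sites within 5 kb in each WT list, the 3 highest and 3 lowest windows of each comparison, and genes of fixed lists. Members and lists were chosen with earlier results of these data known. tRNA genes, RefSeq classes, runs, repeat letters and adapter letters were added after seeing the data. Alternatives changed the score limit, merging, gene ends, chromosomes, windows, bases and noXL removal, and their effect is given in the closing section.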

Additional observations from a re-analysis of the deposited data

Results flagged for a closer look

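In 3 measures and 3 windows the ESC and NPC lists moved in opposite directions under the same contrast. With 1 pooled list per group, the difference between the cell types was not tested in any of them.

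The share of sites outside genes was higher in ΔZF1 than in WT by 0.764 percentage points in ESC, and ΔZF1 minus WT was -0.348 points in NPC. The ratio of WT over ΔZF1 outside genes, divided by that of sense sites, was 0.811 in ESC and 1.15 in NPC. The NPC side of both was not distinguishable from no difference by counting error in 2 alternatives. With sites within 8 nt merged the values were -0.0145 (-0.113 to 0.0844) and 1.01 (0.962 to 1.05), and at uridine only -0.100 (-0.210 to 0.0119) and 1.06 (0.994 to 1.12). For B2-like sites, WT over ΔZF1 divided by the ratio of the other sites outside genes was 0.845 in ESC and 2.61 in NPC, and among antisense sites 1.02 (0.85 to 1.22) and 3.85.

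The window chr17:66480001-66490000 on the minus strand, after Rab12, held 26 and 32 sites in ESC WT and ESC ΔZF1 and 9 and 2 in NPC WT and NPC ΔZF1, scaled log2 ratios of -1.25 and 1.14. The window chr8:70890001-70900000 on the minus strand, after 1700026F02Rik, held 10 and 9 sites in ESC WT and ESC noXL and 10 and 1 in NPC, scaled log2 ratios of WT over noXL of -1.37 and 1.30. The window chrX:150500001-150510000 on the minus strand, after Apex2, held 7 and 5 sites in ESC and 10 and 0 in NPC, -1.09 and 2.30 on the same scale. Of the windows with at least 10 sites in both cell types, the first was the only one past 2-fold in opposite directions among 137 for WT and ΔZF1, and the other 2 were the only ones among 102 for WT and noXL. Past 2-fold the same way in both cell types were 1 of the 137 and 7 of the 102. No share over all windows stands beside these counts, so they cannot be set against a background.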

How the results depend on the processing

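Of 173 values of 22 results under alternative settings, 89 stayed within counting error (or 1.5 times, for window counts), 82 moved further and 2 reversed. No paired analysis was possible because merging preceded site calling in every group, so no library could be left out either. The cause of the changes was not tested.

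With only sites at or above the pooled median score, the share outside genes in ΔZF1 minus WT was 1.16 points in ESC and -1.05 in NPC, the share within 5 kb in NPC ΔZF1 minus WT 14.4, the uridine excess of WT over noXL 14.9 in ESC and 15.5 in NPC, and the share in full windows 23.9% in ESC WT and 12.9% in NPC WT. The quotient of outside over sense ratios for WT over noXL reversed to 1.13 in ESC and was 0.865 in NPC, and for WT over ΔZF1 it was 0.784 and 1.41. Windows higher in NPC WT than noXL numbered 18 (30.5%, against 21.1% of all windows) and those lower in NPC WT than ESC WT 56 (21.1%, against 14.4%).

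With sites within 8 nt merged, the values were -0.0145 (share outside genes, NPC), 7.90 (share within 5 kb), 20.3 and 20.9 (uridine excess, ESC and NPC), 41.7% and 20.8% (full windows), 0.853 and 0.705 (WT over noXL quotient), 0.778 and 1.01 (WT over ΔZF1 quotient) and 6.03 (tRNA body, ESC). With gene bodies widened by 1 kb they were 0.484 and -0.114, 7.90, 20.7 in ESC, 50.5% and 31.1%, 0.913 and 0.675, and 1.09 for WT over ΔZF1 in NPC. With sites near noXL sites removed they were 0.587 in ESC, 12.9, 22.2 and 22.3, 43.2% in ESC WT, and 0.812 and 0.672.

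At uridine only, the share difference was -0.100 in NPC, full windows held 37.1% and 19.7%, the quotients were 0.725 and 0.585 for WT over noXL and 0.766 and 1.06 for WT over ΔZF1, and the windows numbered 12 in ESC and 10 in NPC for WT over noXL (7.95% and 23.3%, against 10.7% and 16.5% of all windows) and 79 for NPC WT lower than ESC WT (37.6%, against 15.0%). At bases other than uridine, with sense sites split the same way, the quotients for WT over noXL were 1.31 in ESC and 1.22 in NPC. Those for WT over ΔZF1 were 0.931 and 1.34. Full windows in ESC WT and NPC WT held 37.0% and 20.0% at 5 kb, 43.3% and 27.1% at 20 kb, 40.0% and 24.8% shifted by 5 kb, 64.4% and 46% from 5 sites, and 25.2% and 10.4% from 20 sites.

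With a minimum of 20 sites, windows higher in WT than noXL numbered 22 in ESC (15.9%, against 8.95% of all windows) and 5 in NPC (13.5%, against 12.4%), those lower in ESC WT than ΔZF1 23 (12.4%, against 6.44%) and those lower in NPC than ESC 63 (34.8%, against 13.8%). Without scaling the same counts were 309 (80.3%, against 77.2%), 90 (71.4%, against 62.1%), 20 (3.69%, against 2.00%) and 222 (43.7%, against 45%). A pseudocount of 0.5 gave 85 (22.1%, against 15.1%) for ESC WT over noXL. Divided by the libraries pooled, NPC WT over ΔZF1 was 2.31.

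The following settings were chosen after seeing the data. Without tRNA sites the top-tenth excess of ESC WT was 15.2 points and the NPC WT over noXL quotient 0.747. Without sites followed by GATC that quotient was 0.867 and the top-tenth excess of NPC noXL 29.8, and without repeated stretches of 64 bases the quotient was 0.760. Without sites in RefSeq genes the share within 5 kb differed by 12.9 points and the quotients were 0.904 and 0.696 for WT over noXL and 0.784 and 1.06 for WT over ΔZF1. Counting tRNA genes once gave 2.95 in ESC and 4.36 in NPC. Among antisense sites the B2-like quotient of WT over ΔZF1 was 1.02 in ESC and 3.85 in NPC. The ESC value was counted as reversed for its direction, but its interval included no difference.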
